A study of Mus musculus with 16 samples.

Results

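The genes described here encode the chains of the fibrillar collagens I, III and V: Col1a1, Col1a2, Col3a1, Col5a1, Col5a2 and Col5a3. They were chosen by name, and all 6 were found among the 13733 genes listed and among the 13173 genes tested. Their transcripts were measured by bulk RNA-seq in 16 libraries of mouse knee joint cells, 4 in each of 4 groups. Each library was treated as 1 mouse, while the labels give separate samples and no more. WT D0 and WT D7 were wildtype C57BL/6 mice, uninjured or 7 days after injury. Trem2-/- D0 and Trem2-/- D7 were Trem2 knockout mice on the same background (C57BL/6J-Trem2em2Adiuj/J), which lack a lipid-sensing surface receptor of myeloid cells. The injury was a rupture of the anterior cruciate ligament by a single compressive overload of the tibia, given to male mice at 10 weeks of age. The labels agree on genotype and injury but name an age of 16 weeks, whole homogenized joints and an unstranded library kit in other fields, in a protocol text whose animals are control and T1DM mice, while the methods describe cells freed from joints with collagenase and a stranded kit. Whether the cells were enriched for leukocytes before RNA was extracted is not given in the sources used here.

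Fibrillar collagens are the rods of the extracellular matrix. Each molecule is a triple helix of alpha chains that is secreted as procollagen, trimmed of its propeptides outside the cell, packed side by side into fibrils and cross-linked. Type I collagen, built from pro-alpha1(I) and pro-alpha2(I) chains, is the main tensile protein of bone, tendon, ligament, meniscus and joint capsule. Type III collagen, a trimer of the Col3a1 chain, co-assembles with type I in soft tissues and early repair tissue. Type V collagen is a minor fibril component that starts fibril assembly and limits fibril diameter, and its chains are encoded by Col5a1, Col5a2 and Col5a3. In the joint these genes are known from fibroblasts, osteoblasts, tendon and ligament cells and fibrous cartilage, and injury is known to raise them in healing tissue.

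The 6 genes lie on 5 chromosomes of the mouse genome (GENCODE M21 annotation of GRCm38, the build of the files). Col1a1 spans chr11:94936224-94953042 on the plus strand and Col1a2 spans chr6:4504814-4541544 on the plus strand. Col3a1 at chr1:45311538-45349706 on the plus strand and Col5a2 at chr1:45374321-45503282 on the minus strand lie tail to tail, with 24614 bases between them. Col5a1 spans chr2:27886425-28039514 on the plus strand, and Col5a3 spans chr9:20770050-20815067 on the minus strand. Reads per gene were counted over exons, and the principal transcripts hold between 51 exons (Col1a1 and Col3a1) and 67 exons (Col5a3). Exons of Col3a1 overlap those of the predicted gene Gm47302 on the same strand, and exons of Col5a1 overlap 2810430I11Rik and Gm13372 on the opposite strand. How strand was treated in counting is not given in the sources used here, so reads in these stretches cannot be assigned to 1 of the partners.

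Since the 6 genes moved together, the 250 bases before their start sites are shown to let their promoters be compared. RefSeq promoters (GRCm38.p6) were matched for 4 of the 6 genes: Col1a2, Col3a1, Col5a1 and Col5a3. Col1a1 and Col5a2 were not matched. Of the matched windows, 3 hold no annotated exon and are printed 5′ to 3′ on the strand of the gene, while that of Col1a2 overlaps an exon of another Col1a2 transcript and is not printed. The capitals mark the letters of 3 motifs searched on both strands, the CCAAT box, the core TATAA of the TATA box and the GC box GGGCGG.
Col3a1, chr1:45311288-45311537, plus strand: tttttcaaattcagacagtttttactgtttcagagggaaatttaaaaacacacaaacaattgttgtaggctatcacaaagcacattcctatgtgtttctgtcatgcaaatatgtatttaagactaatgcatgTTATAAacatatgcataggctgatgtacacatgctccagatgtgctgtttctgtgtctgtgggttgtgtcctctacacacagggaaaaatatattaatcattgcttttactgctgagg
Col5a1, chr2:27886175-27886424, plus strand: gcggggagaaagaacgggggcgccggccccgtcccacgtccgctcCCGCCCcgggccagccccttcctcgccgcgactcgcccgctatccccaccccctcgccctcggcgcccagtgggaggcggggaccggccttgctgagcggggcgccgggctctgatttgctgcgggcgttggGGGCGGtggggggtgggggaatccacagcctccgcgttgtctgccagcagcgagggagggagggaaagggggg
Col5a3, chr9:20815068-20815317, minus strand: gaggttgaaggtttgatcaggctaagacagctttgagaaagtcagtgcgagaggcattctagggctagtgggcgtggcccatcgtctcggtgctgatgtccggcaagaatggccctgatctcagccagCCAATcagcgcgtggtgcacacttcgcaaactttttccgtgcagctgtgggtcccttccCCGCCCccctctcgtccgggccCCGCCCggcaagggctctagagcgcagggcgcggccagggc

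The windows differ in base composition and in the motifs they hold. The Col3a1 window has a GC content of 35.2% and holds TATAA on both strands in 1 overlapping stretch that begins 118 bases before the start. The Col5a1 window has a GC content of 76.4% and 2 GC boxes, 205 and 73 bases before the start. The Col5a3 window has a GC content of 62.8%, with CCAAT 122 bases and GC boxes 63 and 41 bases before the start. The Col1a2 window (GC content 62.0%) holds CCAAT at 109 bases and GC boxes at 205 and 188 bases. Among 32817 RefSeq windows of the same length, CCAAT was present in 33.8%, TATAA in 22.8% and GGGCGG in 32.7%, and the median GC content was 52.4%. A match is a description of letters only, and no factor was measured.

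Values are the deposited CPM, that is, read counts scaled by a library size adjusted with TMM factors. Library totals over all listed genes were between 11567073 and 32867818 reads. Trem2, the targeted gene, ranged from 10.7 to 22.5 CPM at WT D7 and from 3.42 to 4.84 CPM at Trem2-/- D7, and from 2.51 to 5.61 CPM at WT D0 and 0.948 to 2.68 CPM at Trem2-/- D0. The knockout libraries held some Trem2 reads, and their D0 range overlapped that of WT D0. Within WT D0, 2 libraries stood apart for these genes: replicate 4 was the highest and replicate 2 the lowest for all 6 collagens. The members' fold changes, chain ratios and list counts that use WT D0 are therefore also given without 1 or both of them.

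All 6 collagen transcripts were higher at D7 than at D0 in both genotypes, and no D0 library reached the lowest D7 library of its genotype for any of them. The fold change on the log2(CPM + 1) scale was between 5.29 and 7.97 in WT mice and between 9.75 and 21.9 in Trem2-/- mice. At D7 the genotypes overlapped for all 6 genes, with mean CPM that were 1.21 to 1.37 times as high in Trem2-/- mice, and none passed the test between genotypes.

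**Figure D1:**
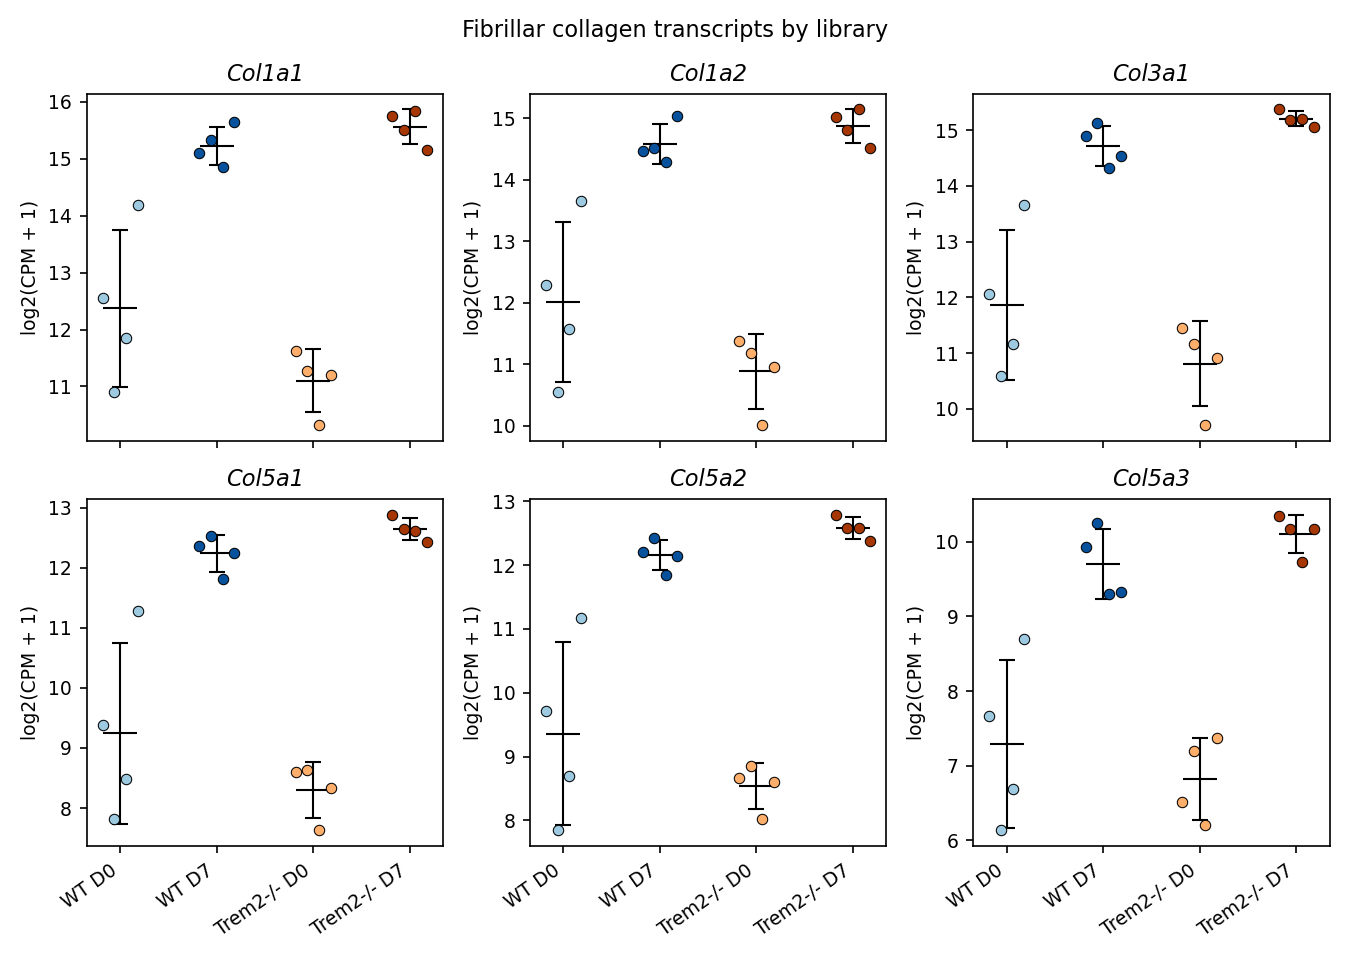
Transcript level of the 6 collagen genes in every library, as log2(CPM + 1) on the vertical axis, by group on the horizontal axis (4 mice each). Points are libraries, and bars are the mean and SD on the log2 scale. The D7 points lie above the D0 points of the same genotype in each panel, and the 4 WT D0 points are spread over a wider range than those of the other groups.

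Col1a1 encodes the chain that fills the larger number of places in the type I helix. In WT D0 mice it was measured at 6018, 1918, 3714 and 18523 CPM (replicates 1 to 4), and in WT D7 mice at 35151, 40889, 29618.5 and 51035 CPM. In Trem2-/- D0 mice it was at 3142, 2459, 1282 and 2369 CPM, against 55261, 46550.5, 58146 and 36250.5 CPM in Trem2-/- D7 mice. The WT D0 libraries covered a 9.66-fold range, against a 1.72-fold range at WT D7 and a 1.60-fold range at Trem2-/- D7. The group means were 7543 ± 7510 CPM (SD, n = 4) at WT D0, 39174 ± 9149 at WT D7, 2313 ± 769 at Trem2-/- D0 and 49052 ± 9855 at Trem2-/- D7.

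Col1a2 encodes the partner chain of type I collagen. Its WT D0 values were 4974, 1501, 3038 and 12917 CPM, and its WT D7 values were 22544.5, 23483, 20078 and 33641 CPM. The Trem2-/- D0 libraries held 2672, 2315, 1034 and 1990.1 CPM, and the Trem2-/- D7 libraries 32976, 28578, 36172 and 23377 CPM. Its highest D0 library in either genotype, WT D0 replicate 4, lay below the lowest D7 library of WT mice by 1.55-fold.

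Col3a1, the sole chain of type III collagen, was at 4247, 1539.8, 2282 and 12978.5 CPM in WT D0 mice and at 30465, 35789.5, 20413 and 23697 CPM in WT D7 mice. In Trem2-/- mice it was at 2792, 2292, 836 and 1920.3 CPM at D0 and at 42534, 37426, 37598 and 34004 CPM at D7. The 4 Trem2-/- D7 values of this gene lay within the narrowest range of any member and group. Its WT D7 libraries were ordered differently from those of Col1a1: replicate 4, the highest for Col1a1, was the second lowest for Col3a1.

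The type V genes followed at lower levels. Col5a1 was at 664, 225, 359 and 2491 CPM in WT D0 mice, 5285, 5903, 3606 and 4836 CPM in WT D7 mice, 387, 396, 197 and 320.1 CPM in Trem2-/- D0 mice and 7564, 6430.2, 6262 and 5499 CPM in Trem2-/- D7 mice. Col5a2, whose chain joins the Col5a1 chain in the common type V molecule, was at 843, 229, 413 and 2309.7 CPM in WT D0 mice, 4732, 5523, 3698 and 4547 CPM in WT D7 mice, 405, 461, 260.0 and 389 CPM in Trem2-/- D0 mice and 7102, 6141, 6139.8 and 5329.7 CPM in Trem2-/- D7 mice. Both genes had an 11.1-fold or 10.1-fold range within WT D0 and ranges of at most 2.00-fold in the other groups. Col5a3, the type V chain of more restricted tissue distribution, was at 202, 69.4, 102 and 413 CPM in WT D0 mice, 971, 1222, 627 and 641 CPM in WT D7 mice, 90.7, 146, 72.6 and 164 CPM in Trem2-/- D0 mice and 1297, 1153, 851 and 1155 CPM in Trem2-/- D7 mice. It had the narrowest spread of the 6 genes at WT D0, a 5.95-fold range.

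Levels of different genes can be set side by side only per transcript length. Per kilobase of the principal transcript, WT D7 mice held 6606 ± 1543 CPM of Col1a1, 4959 ± 1237 of Col3a1 and 4663 ± 1118 of Col1a2 (SD, n = 4). The ranges of these 3 genes overlapped, Col3a1 and Col1a2 lay within their SDs, and Col1a1 was above both others in 4 of 4 libraries. The type V genes were lower in the same mice, at 698 ± 113 CPM per kilobase for Col5a2, 584 ± 116 for Col5a1 and 141 ± 46.7 for Col5a3. The step from the type I and III genes to Col5a2 and the step from Col5a1 to Col5a3 exceeded the SDs, while Col5a2 and Col5a1 lay within them. In Trem2-/- D7 mice the order was the same, from 8272 ± 1662 CPM per kilobase for Col1a1 through 6810 ± 631 for Col3a1, 5661 ± 1038 for Col1a2, 933 ± 109 for Col5a2 and 766 ± 101 for Col5a1 to 182 ± 30.7 for Col5a3. In uninjured Trem2-/- mice the type I and III genes were nearly level, at 390.1 ± 130 (Col1a1), 375 ± 132 (Col1a2) and 352 ± 149 CPM per kilobase (Col3a1).

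Together the 6 genes took a large share of the reads after injury. They accounted for 1.80, 0.664, 1.10 and 5.19% of the reads in the 4 WT D0 libraries and for 9.51, 10.4, 7.03 and 10.1% in the WT D7 libraries. In the Trem2-/- libraries the share was 1.03, 0.891, 0.409 and 0.801% at D0 and 13.3, 11.5, 12.4 and 9.84% at D7. Read counts are relative, so this share is taken from that of other genes. With TMM factors computed without the 6 collagens, the same 6 genes passed in each genotype and their log2 fold changes were between 2.44 and 3.03 in WT mice and between 3.31 and 4.48 in Trem2-/- mice.

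**Figure D2:**
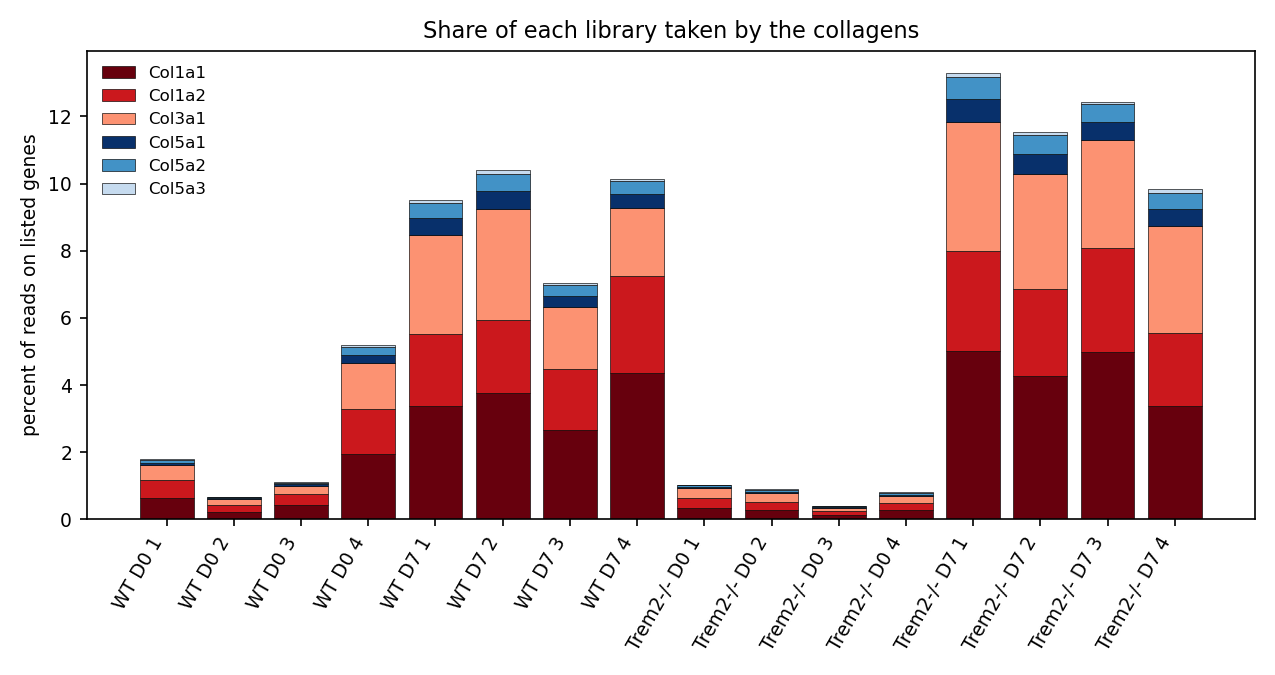
Share of the reads of each library that fell on the 6 collagen genes, in percent on the vertical axis, 1 stacked bar per library (group and replicate number) and 1 colour per gene. Col1a1, Col1a2 and Col3a1 make up most of each bar, the D7 bars lie between 7.03 and 13.3%, and WT D0 replicate 4 stands at 5.19% among D0 bars of at most 1.80%.

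The first comparison asked how the injury moved the collagen transcripts in WT mice. All 6 genes rose, with an adjusted p between 0.00146 and 0.00402 (limma on log2(CPM + 1), Benjamini-Hochberg over 13173 genes). In this comparison 28.5% of all genes passed in either direction and 15.9% rose, and 12.9% had D7 libraries that all lay above the D0 libraries. Col5a1 had a log2 fold change of 2.99 ± 0.52 (SE), Col1a1 of 2.85 ± 0.57, Col3a1 of 2.85 ± 0.56, Col5a2 of 2.80 ± 0.49, Col1a2 of 2.56 ± 0.54 and Col5a3 of 2.40 ± 0.43. By log2 fold change they held ranks 19 (Col5a1) to 63 (Col5a3) from the top. The ratio of the mean CPM at D7 to that at D0 was smaller, between 4.40 and 5.25, since WT D0 replicate 4 weighs more in a linear mean. Without that library the log2 fold changes were between 2.87 and 3.67, without WT D0 replicate 2 they were between 2.02 and 2.52, and all 6 genes passed in both cases. With quantile normalization 3 of the 6 passed (Col5a1, Col5a2 and Col5a3), and the highest adjusted p of the other 3 was 0.0741. In a limma fit of the WT groups alone, which does not share the smaller spread of the other groups, all 6 passed closer to the threshold. There p was between 0.000840 and 0.00579 and the adjusted p between 0.0258 and 0.0470.

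In Trem2-/- mice the same comparison gave 6 of 6 genes higher at D7 (limma, adjusted p between 2.20e-05 and 4.41e-05). There 53.2% of all genes passed in either direction, 26.0% rose, and 26.1% had D7 libraries entirely above the D0 libraries. Col1a1 had a log2 fold change of 4.45 ± 0.57, Col3a1 of 4.40 ± 0.56, Col5a1 of 4.35 ± 0.52, Col5a2 of 4.05 ± 0.49, Col1a2 of 3.98 ± 0.54 and Col5a3 of 3.29 ± 0.43. The lowest D7 library exceeded the highest D0 library by 5.18-fold for Col5a3 and by 8.75 to 13.9-fold for the other 5 genes, where the same gap was 1.45 to 1.60-fold in WT mice. The 6 genes held ranks 17 to 65 of 13173 by log2 fold change.

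The remaining comparisons asked whether loss of Trem2 altered these transcripts. At D7, 0 of the 6 genes passed the rule of the study's methods (limma, unadjusted p under 0.05 with a minimum fold change), and 0 of 6 had an unadjusted p under 0.05. By that rule 5.72% of all genes passed, 1.18% as higher in Trem2-/- mice. Fold changes on the log2 scale were between 0.29 (Col1a2) and 0.49 (Col3a1), with p between 0.36 and 0.60 and an adjusted p between 0.884 and 0.935. The 95% interval of the log2 difference ran from -0.89 to 1.55 for Col1a1, from -0.71 to 1.69 for Col3a1 and from -0.70 to 1.51 for Col5a1, and all 6 intervals included 0. These intervals use a spread shared by the 4 groups, of which WT D0 was the widest for each member. A limma fit of the D7 groups alone gave the same fold changes. Its p was between 0.0659 and 0.502 and its adjusted p between 0.372 and 0.781. The means were higher in Trem2-/- mice for all 6 genes, as they were for 51.6% of all genes. For Col3a1, Col5a1 and Col5a2, 3 of the 4 Trem2-/- D7 libraries lay above all WT D7 libraries, with an exact two-sided permutation p of 0.0571 each, and 9.74% of all genes had at least 3 such libraries. For 0 of the 6 members did all 4 lie above, as they did for 3.55% of all genes. The edgeR quasi-likelihood test and voom on the recovered reads also called 0 of the 6.

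In uninjured joints the transcripts were lower on average in Trem2-/- mice, and all groups overlapped. Col1a1 passed the study's rule, with a log2 fold change of -1.27 ± 0.57 (SE; 95% interval -2.49 to -0.05, limma, adjusted p = 0.9996), and the other 5 genes, which did not, had values between -1.13 (Col1a2) and -0.48 (Col5a3). This is 1 of 6 genes, where 2.15% of all genes passed, 1.37% passed as lower and 0.539% were lower without overlap. The exact two-sided permutation p was 0.171 for Col1a1 and between 0.2 and 0.486 for the others. For every member, no Trem2-/- D0 library reached the WT D0 maximum, which is replicate 4. The count rested on single libraries: it was 0 of 6 without WT D0 replicate 4, where the values were between -0.67 and -0.01, and 6 of 6 without WT D0 replicate 2, where they were between -1.76 and -0.86. Without both libraries it was 3 of 6 (Col1a1, Col1a2 and Col5a2). It was also 0 of 6 without WT D0 replicate 1 or without Trem2-/- D0 replicate 2, 3 or 4, and 2 of 6 without WT D0 replicate 3 or Trem2-/- D0 replicate 1. Of all 13173 genes, 283 passed with all libraries, 107 without WT D0 replicate 4, 1231 without replicate 2 and 588 without both. The edgeR quasi-likelihood test called 5 of 6, all but Col5a3, with an adjusted p of 0.9997 for each.

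The test of whether the response to injury differed between the genotypes gave 0 of 6 genes by the study's rule (limma). By that rule 7.79% of all genes passed, 2.77% with a more positive change (a larger rise or a smaller fall) in Trem2-/- mice. The interaction was between 0.88 ± 0.61 (Col5a3) and 1.60 ± 0.81 (Col1a1) on the log2 scale, with p between 0.0667 and 0.169 and an adjusted p between 0.63 and 0.73. Without WT D0 replicate 2, 6 of 6 passed, with p between 0.00683 and 0.0330 and an adjusted p between 0.176 and 0.253. Without WT D0 replicate 4 the interaction was between 0.42 and 1.00 and 0 of 6 passed, and without both libraries 4 of 6 passed. Among all 13173 genes, 1026 passed with all libraries, 2236 without WT D0 replicate 2, 609 without replicate 4 and 1440 without both. The edgeR quasi-likelihood test called 5 of 6 and voom called 1 of 6. These comparisons share their groups: the D0 differences and the responses to injury use the same D0 libraries.

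**Figure D3:**
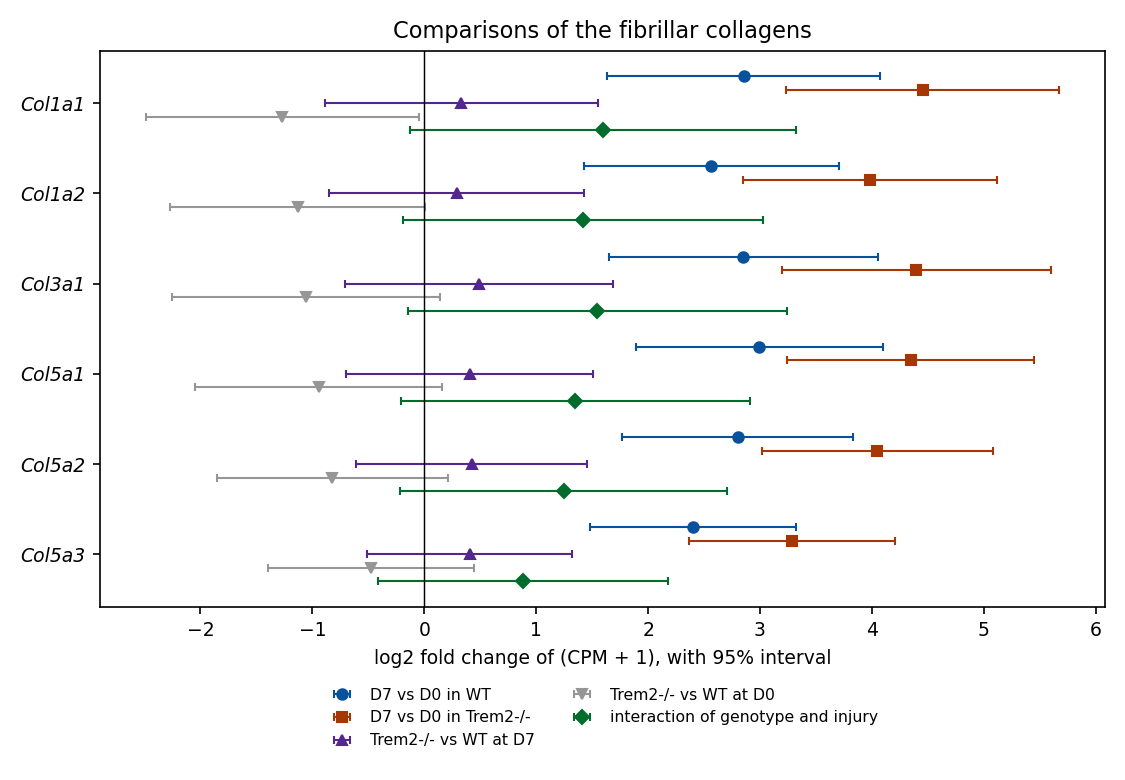
Log2 fold change of (CPM + 1) on the horizontal axis, with its 95% interval from limma, for the 6 collagen genes in 5 comparisons marked by colour and symbol. The intervals of both D7 vs D0 comparisons lie above 0 for each gene, those of Trem2-/- vs WT at D7 include 0, and at D0 that of Col1a1 ends just below 0 at -0.05.

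Ratios between chains within a library do not depend on the scaling of the library. They were compared for 5 pairs in 4 comparisons with exact two-sided permutation tests, 20 tests in all, where 4 against 4 mice cannot give a p below 0.0286. The ratio of Col1a1 to Col1a2 reads, not corrected for length, was 1.21, 1.28, 1.22 and 1.43 in WT D0 mice and 1.56, 1.74, 1.48 and 1.52 in WT D7 mice. In Trem2-/- mice it was 1.18, 1.06, 1.24 and 1.19 at D0 and 1.68, 1.63, 1.61 and 1.55 at D7. The D7 libraries lay above the D0 libraries in each genotype, by 1.22-fold in WT and 1.39-fold in Trem2-/- mice (exact permutation p = 0.0286 each, adjusted p = 0.143). The ratio of Col5a1 to Col5a2 was 0.958, 0.858, 0.759 and 0.823 in Trem2-/- D0 mice and 1.06, 1.05, 1.02 and 1.03 in Trem2-/- D7 mice (exact permutation p = 0.0286, adjusted p = 0.143), and its groups overlapped in WT mice (0.93 ± 0.13 against 1.06 ± 0.06, p = 0.2, exact permutation, n = 4). Leaving out WT D0 replicate 2, replicate 4 or both kept the WT D7 values of Col1a1 to Col1a2 above those of D0, by 1.22, 1.27 and 1.29-fold, with no test. With both left out, Col5a1 to Col5a2 also lay higher at WT D7 without overlap, by 1.28-fold.

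Col5a3 reads were fewer relative to Col5a1 reads after injury in Trem2-/- mice. The ratio of Col5a3 to Col5a1 was 0.234, 0.368, 0.368 and 0.513 in Trem2-/- D0 mice and 0.172, 0.179, 0.136 and 0.210 in Trem2-/- D7 mice, which did not overlap (exact permutation p = 0.0286, adjusted p = 0.143). In WT mice it was 0.305, 0.308, 0.285 and 0.166 at D0 and 0.184, 0.207, 0.174 and 0.133 at D7, and the groups overlapped through WT D0 replicate 4 (exact permutation p = 0.114). Without that library the WT D7 values lay below the D0 values without overlap, at 0.575 times their level, and at 0.584 times without replicates 2 and 4. Col5a1 relative to Col1a1 was overlapping between the genotypes at D0, and was 1.32 times as high in Trem2-/- mice without WT D0 replicate 4 or 1.38 times without both, with no overlap. At D7 the ratio of Col5a3 to Col5a1 averaged 0.174 in both genotypes. The ratio of Col3a1 to Col1a1 was 0.71 ± 0.08 at WT D0, 0.72 ± 0.19 at WT D7, 0.82 ± 0.12 at Trem2-/- D0 and 0.79 ± 0.12 at Trem2-/- D7 (SD, n = 4), with an exact permutation p between 0.171 and 1.0 in the 4 comparisons. None of the 20 tests had an adjusted p under 0.05, and 4 had an unadjusted p under 0.05. These 4 were at the lowest possible exact permutation p of 0.0286, which the adjustment over 20 tests raised to 0.143. A ratio without overlap could thus not pass by itself, and the adjusted tests cannot decide whether single ratios changed.

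**Figure D4:**
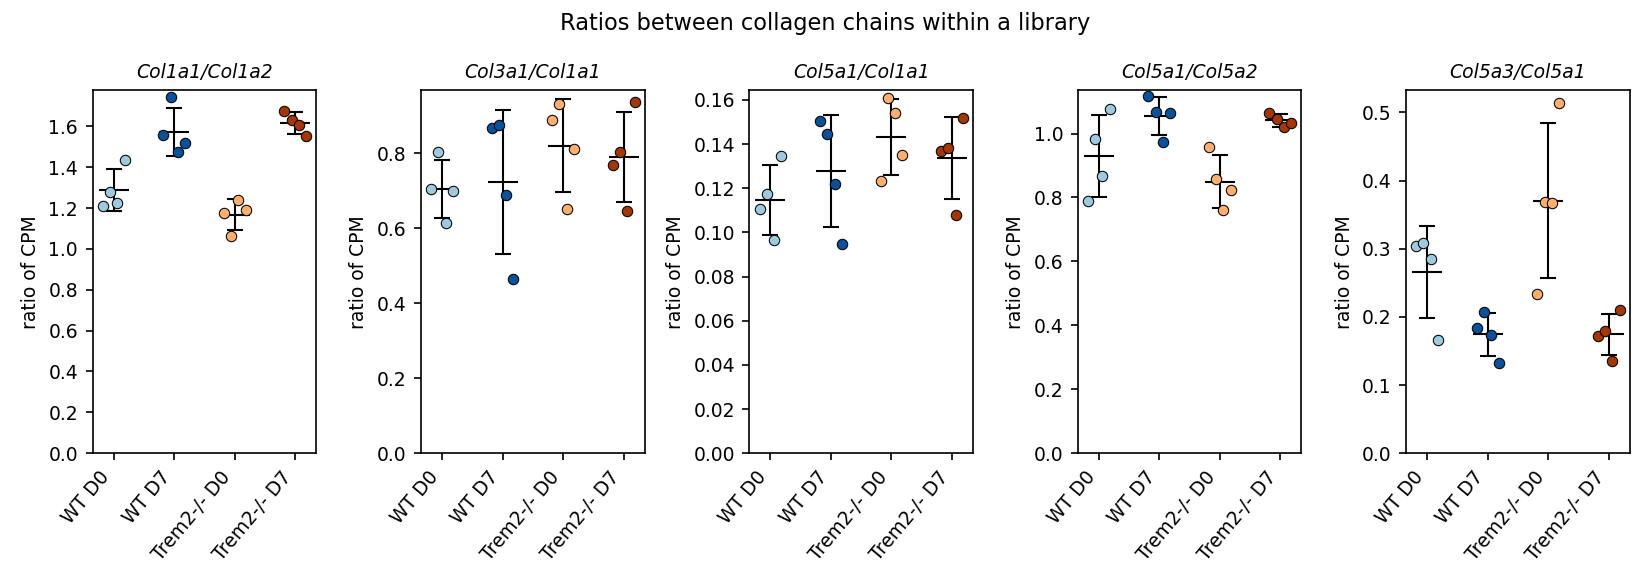
Ratio of the CPM of 2 collagen genes within a library, not corrected for length, on the vertical axis, by group on the horizontal axis (4 mice each). Points are libraries and bars are mean and SD. The Col1a1/Col1a2 points at D7 lie above those at D0 in both genotypes, and the Col5a3/Col5a1 points at D7 have a mean of 0.174 in each genotype.

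Over the 16 libraries the members traced nearly 1 profile. The root mean square distance between their gene-centred log2 values was 0.17 for Col5a1 and Col5a2, 0.18 for Col3a1 and Col5a1 and 0.21 for Col1a1 and Col1a2, and it was largest for Col1a1 and Col5a3 at 0.65. For scale, the median distance of all other genes to the mean profile of the members was 1.89. The 5 genes nearest to that mean profile were Col6a1 (0.14), Col6a2 (0.14), C1qtnf6 (0.19), Cd276 (0.21) and Col6a3 (0.22), of which Col6a1, Col6a2 and Col6a3 encode the chains of the beaded-filament collagen VI. The nearest gene outside the members was Col6a3 for Col1a1, Col3a1 and Col5a1, Col12a1 for Col1a2, Col6a1 for Col5a2 and the ion channel gene Piezo2 for Col5a3 (0.24). These are descriptions over 4 groups that share the contrast of D7 and D0, and the libraries share depth and scaling.

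Genes that make, process and bind fibrillar collagen were taken as lists. Of the other fibrillar collagens, all 5 rose in WT and all 5 in Trem2-/- mice (limma, adjusted p under 0.05), with a median log2 fold change of 3.39 and 4.25, against -0.04 over all genes in each genotype. Col2a1, the collagen of hyaline cartilage, rose from 3466 ± 3252 CPM to 42086 ± 15203.5 CPM in WT mice (SD, n = 4), by 4.45 on the log2 scale, and by 5.65 in Trem2-/- mice. Col11a1 and Col11a2, the cartilage relatives of the type V genes, rose by 3.39 and 3.42 in WT and by 4.91 and 4.25 in Trem2-/- mice. At D0 these 3 genes passed the study's rule as lower in Trem2-/- mice, with log2 fold changes of -2.06 (Col2a1), -1.79 (Col11a1) and -1.44 (Col11a2), each with an adjusted p of 0.9996 (limma).

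All 14 genes found of 16 in the list of procollagen folding and secretion rose in both genotypes (Fkbp14 and Mia3 were not among the genes listed), with a median log2 fold change of 1.64 in WT and 2.05 in Trem2-/- mice. The prolyl hydroxylase subunit gene P4ha3 rose by 2.98 in WT and 4.22 in Trem2-/- mice, the lysyl hydroxylase gene Plod2 by 2.84 and 3.59, P4ha2 by 2.77 and 2.80, and the collagen chaperone gene Fkbp10 by 2.59 and 3.70. Ppib, the prolyl isomerase cyclophilin B, passed the study's rule as higher in Trem2-/- D7 mice (log2 fold change 0.39 ± 0.13, limma, adjusted p = 0.524). Ppib and the collagen galactosyltransferase gene Colgalt1 also passed that rule in the interaction, at 0.49 and 0.60 (adjusted p = 0.579 each). Fkbp10 passed it as lower in Trem2-/- D0 mice, at -0.92 (adjusted p = 0.9996).

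Of the 12 genes of propeptide cleavage and cross-linking, 11 rose in WT and 12 in Trem2-/- mice. The lysyl oxidase family genes, whose enzymes cross-link the fibril, rose as well, Loxl3 by 2.98 in WT and 3.48 in Trem2-/- mice, Loxl2 by 2.50 and 3.25, Loxl4 by 2.21 and 2.80, Lox by 2.04 and 3.27, and Loxl1 by 1.75 and 2.37. Adamts3, a procollagen N-proteinase, passed the study's rule as lower in Trem2-/- D0 mice (-0.86, limma, adjusted p = 0.9996). Tll1, a procollagen C-proteinase, was the gene that did not pass in WT mice, at 0.05 on the log2 scale, and it was named after its value was seen.

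Of 11 fibril-binding matrix proteins, 8 rose in WT and 9 in Trem2-/- mice. Col12a1, a collagen on the fibril surface, rose by 2.52 in WT and 4.14 in Trem2-/- mice, the proteoglycan gene Bgn by 2.40 and 3.05, the fibronectin gene Fn1 by 2.36 and 2.62, the periostin gene Postn by 2.30 and 4.23 and the thrombospondin gene Thbs2 by 1.75 and 3.54. In this list 5 genes passed the study's rule as lower in Trem2-/- D0 mice, namely Fmod, Lum, Thbs2, Postn and Col12a1, with log2 fold changes between -1.42 (Col12a1) and -1.09 (Fmod). Lum, Thbs2, Postn and Col12a1 also passed in the interaction, with an adjusted p between 0.579 and 0.608 (limma). The interaction shares the D0 libraries with that comparison.

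Among 12 genes of collagen degradation and collagen receptors, 9 rose and 1 fell in WT mice and 10 rose and 1 fell in Trem2-/- mice. The membrane-bound collagenase gene Mmp14 rose by 2.18 in WT and 3.78 in Trem2-/- mice, the collagen uptake receptor gene Mrc2 by 2.09 and 3.21, the gelatinase gene Mmp2 by 1.87 and 3.15, and the integrin gene Itga11 by 1.72 and 3.38. Mmp8, the neutrophil collagenase, fell by 1.33 in WT mice and fell by 2.25 in Trem2-/- mice. Mmp13, another collagenase gene, and Mmp14 passed the study's rule as lower in Trem2-/- D0 mice, at -2.36 and -0.97 (limma, adjusted p = 0.9996 each). Mmp13, Mmp14, Ctsk, Itga2 and Itga11 passed it in the interaction, each with an adjusted p of 0.579.

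The listed regulators of type I collagen transcripts moved less. In WT mice 2 of 12 rose, Ctgf by 0.98 and Tgfbr2 by 0.58 (limma, adjusted p = 0.0488 and 0.0317), where 15.9% of all genes rose. That count was 0 without WT D0 replicate 2, 4 without replicate 4 and 1 without both. In Trem2-/- mice 7 of 12 rose, led by Tgfb2 (2.13), Ctgf (1.22) and Tgfb3 (1.04), where 26.0% of all genes rose. The median log2 fold change of the list was 0.26 in WT and 0.41 in Trem2-/- mice. Tgfb1, the growth factor gene known best for inducing type I collagen, was at 213 ± 22.9 CPM in WT D0 and 217 ± 18.1 CPM in WT D7 mice (SD, n = 4).

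The calls of these 6 lists also moved with WT D0 replicates 2 and 4. Of their 66 genes, 49 rose and 1 fell in WT mice with all libraries, 40 rose without replicate 2, 52 rose and 1 fell without replicate 4, and 45 rose without both. At D0, 12 passed the study's rule as lower in Trem2-/- mice, 39 did without WT D0 replicate 2, and 27 did without both, with all 12 among them each time. Without WT D0 replicate 4 alone, Col11a1 and Mmp13 passed, 2 of the 12, at -1.20 and -1.81 on the log2 scale. In the interaction 11 passed with a more positive change in Trem2-/- mice, 39 did without replicate 2, 25 without both, and 6 without replicate 4, namely Ppib, Colgalt1, Postn, Mmp14, Itga2 and Itga11. Of the fibril-binding proteins, 5 passed as lower at D0 with all libraries, 0 without replicate 4 and 6 without both. Over all 13173 genes, calls in either direction went from 283 to 1231 at D0 without replicate 2, and from 1026 to 2236 in the interaction.

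**Figure D5:**
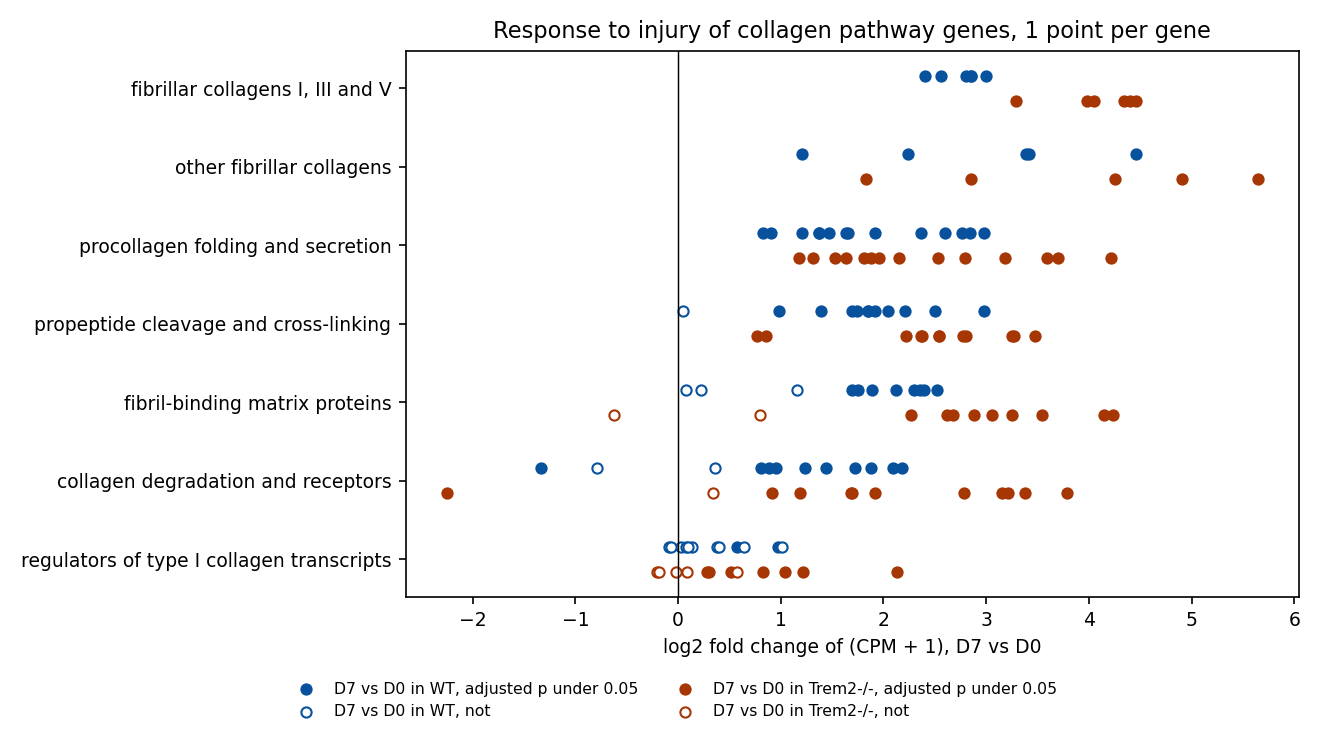
Log2 fold change of (CPM + 1) at D7 vs D0 on the horizontal axis, 1 point per gene, for the 6 collagens and 6 lists of collagen-related genes, in WT mice (blue) and in Trem2-/- mice (brown). Filled points had an adjusted p under 0.05 (limma) and open points did not. The members lie between 2.40 and 2.99 in WT and between 3.29 and 4.45 in Trem2-/- mice, and the regulators lie nearest to 0.

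Markers of several cell types moved with the injury too. In a bulk library a higher level per cell and more cells of a type cannot be told apart. Of all genes, 15.9% rose in WT and 26.0% in Trem2-/- mice. The summed CPM of 8 fibroblast markers was 360 to 983 at WT D0, 1169 to 1550 at WT D7, 370 to 822 at Trem2-/- D0 and 1423 to 1666 at Trem2-/- D7, and 6 of the 8 rose in each genotype, while Clec3b passed in neither and Pi16 fell in Trem2-/- mice. The sum of 8 chondrocyte markers, of which Col2a1 is 1, went from a range of 698 to 12559 to one of 28608 to 72491 in WT mice and from 1019 to 3938 to 26812 to 41260 in Trem2-/- mice, with 8 of 8 rising in each. Of 7 osteoblast and osteocyte markers found, 3 rose in WT and 4 in Trem2-/- mice, and the range of their sum was 174 to 941 at WT D0, 909 to 2496 at WT D7, 166 to 352 at Trem2-/- D0 and 542 to 1817 at Trem2-/- D7. Of 4 tendon and ligament markers, 1 rose in WT and 4 in Trem2-/- mice, and their sum was 33.1 to 184 at WT D0, 125 to 295 at WT D7, 55.5 to 82.7 at Trem2-/- D0 and 474 to 631 at Trem2-/- D7. Between genotypes at D7, 3 of these 4 passed the study's rule as higher in Trem2-/- mice, Kera by 1.51, Tnmd by 1.41 and Scx by 0.91 on the log2 scale (limma, adjusted p between 0.451 and 0.615), and Mkx was at 0.53. At D0, Kera and Mkx passed as lower, at -0.87 and -0.83, and in the interaction 4 of 4 passed, between 1.36 (Mkx) and 2.38 (Kera), with an adjusted p of 0.579 each. All 4 also passed in the interaction without WT D0 replicate 2, replicate 4 or both, and at D0 none passed without replicate 4. By the study's rule 1.18% of all genes passed as higher at D7 and 1.37% as lower at D0 in Trem2-/- mice. In the interaction 2.77% passed with a more positive change in Trem2-/- mice. Without WT D0 replicate 2, 3 of the 8 fibroblast and 6 of the 8 chondrocyte markers rose in WT mice. No marker of these 4 lists was at 0 in all libraries of a group, and their part in the collagen result was not tested.

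Leukocyte and blood markers moved the other way. The sum of 6 leukocyte markers was 2899 to 5673 CPM at WT D0, 1703 to 3697 at WT D7, 3620.1 to 6277 at Trem2-/- D0 and 1328 to 1657 at Trem2-/- D7, and 4 of 6 fell in WT and 6 of 6 in Trem2-/- mice. All 6 also passed the study's rule as lower in Trem2-/- D7 than in WT D7 mice, 0 of them with an adjusted p under 0.05 (limma). By that rule 5.72% of all genes passed in either direction, 1.18% as higher. In the interaction 6 of 6 passed with the larger decrease in Trem2-/- mice, where 7.79% of all genes passed in either direction. That count was 6 without WT D0 replicate 2, 3 without replicate 4 and 5 without both. All 4 neutrophil markers and all 3 erythroid markers found fell in both genotypes, and 4 of 4 skeletal muscle markers fell in Trem2-/- mice. Of 4 synovial lining markers 1 rose in Trem2-/- mice, and of 5 mural and myofibroblast markers 1 rose in WT mice and 2 rose and 1 fell in Trem2-/- mice. For comparison, 15.9% of all genes rose in WT and 26.0% in Trem2-/- mice. Without WT D0 replicate 2 the WT counts were 1 of 6 leukocyte, 2 of 4 neutrophil and 0 of 3 erythroid markers lower at D7. The libraries of WT D0 that stood apart for the collagens also differed in these sums: replicate 2, lowest for the collagens, held 360 CPM of fibroblast and 698 CPM of chondrocyte markers, and replicate 4, highest for the collagens, held 969 and 12559 CPM. Replicate 1, however, held 983 CPM of fibroblast markers, more than replicate 4, with Col1a1 at 6018 CPM. Their part in the spread of the collagens was not tested.

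The members were therefore also divided by the summed fibroblast markers of the same library, a step chosen after the data were seen. On this scale all 6 D7 groups lay above the D0 groups in WT mice, by 2.52 to 3.79-fold, where 1.48% of all genes did, and in Trem2-/- mice by 3.97 to 8.84-fold, where 3.62% did. At D0, Col1a1, Col1a2, Col3a1 and Col5a1 of Trem2-/- mice lay below all WT values without overlap, at 0.441 to 0.552 times the WT level, where 0.66% of all genes did. Without WT D0 replicate 4 the same 4 genes lay lower without overlap, at 0.588 to 0.777 times, and Col5a2 joined them without replicate 2 (0.384 to 0.518 times) and without both (0.551 to 0.761 times). All 6 D7 groups of WT mice stayed above D0 in each of these cases, by 2.36-fold or more. At D7, Col3a1, Col5a1 and Col5a2 of Trem2-/- mice lay above all WT values, by 1.20 to 1.27-fold, where 0.858% of all genes did. Their lowest Trem2-/- D7 values were 23.3, 3.87 and 3.75, against highest WT D7 values of 23.1, 3.81 and 3.56. Pi16, among the summed markers, passed the study's rule as higher in Trem2-/- D0 mice (log2 fold change 0.59, limma, adjusted p = 0.9996). It passed as lower in Trem2-/- D7 mice (-0.54, adjusted p = 0.558), and its part in these differences was not tested. Dividing by the marker sum lowers or raises every gene of a library alike, and other cell types that make these collagens are not covered by it.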

How the data were processed

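The 16 bulk RNA-seq libraries of mouse knee joints, 4 per genotype and day, were analysed, grouped by the genotype and injury state in the labels. The authors made the deposited signal values, TMM-normalized CPM, with STAR (mm10), featureCounts and edgeR, and versions, annotation and strand setting are not given in the sources used here. All values (100%) were whole multiples of the value of 1 read to within 0.01 reads, so reads were recovered. A repeated row was used once, leaving 13733 genes.

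Values were compared as log2(CPM + 1) in R 4.3.3 by limma 3.58.1 (a linear model with trended empirical Bayes moderation), in 1 fit of the 4 groups. The 13173 genes that reached 1 CPM in 4 or more libraries were tested. Injury calls used a Benjamini-Hochberg adjusted p under 0.05, and genotype and interaction calls p under 0.05 with a fold change over 1.25. The fit was tested on simulated counts given the same spread in every group, which does not test it under the wider spread of WT D0. Ratios were compared with exact permutation tests over 70 assignments (scipy 1.17.1, Python 3.11.15). Replicates differed beyond sampling noise (chi-square per degree of freedom at least 10.8). The labels give separate samples and no more, so p-values measure the spread between these samples. Library totals were between 11567073 and 32867818 reads, and 3 reads corresponded to 0.101 to 0.250 CPM.

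Named genes are the members, Trem2, up to 3 genes per direction and list with the largest log2 fold change among those passing for injury, list genes called between genotypes, and the genes with the nearest profiles. Tgfb1, Tll1, Loxl1, Pi16 and Clec3b are named outside this rule, after their values were seen. The members and lists were chosen with earlier results of these data known. Alternatives were pseudocounts of 0.1 and 5, no filter, a mean of at least 5 CPM, quantile, median-of-ratios and TMM rescaling without the collagens, only the groups compared, eBayes without trend, a replicate block, each library left out, a fold change over 1.5, and voom and edgeR 4.0.16 on recovered reads. Division by fibroblast markers, leaving out 2 WT D0 libraries together, and ratios and list counts without WT D0 replicate 2, 4 or both were added after the data were seen.

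Gene positions came from GENCODE M21 (GRCm38) and promoters from RefSeq (GRCm38.p6).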

Additional observations from a re-analysis of the deposited data

Results flagged for a closer look

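Sets of 4 libraries were checked for 1 value far from the others (each member, each ratio and the summed share of reads, in each group). Of 48 sets 1 was found, a share no higher than the about 1 in 20 sets that chance gives. It was the ratio of Col5a3 to Col5a1 in WT D0 mice: replicate 4 was at 0.166, the other 3 libraries lay between 0.285 and 0.308, and the gap was 0.839 of the whole range. The same library was the highest of WT D0 for all 6 collagens.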

How the results depend on the processing

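No member changed direction in any comparison under the alternative limma, voom and edgeR fits. In Trem2-/- mice 6 of 6 members passed D7 vs D0 in all of these fits, and at D7 0 of 6 passed between genotypes in any. Divided by fibroblast markers, a scale with no test, Col3a1, Col5a1 and Col5a2 lay higher in Trem2-/- D7 mice without overlap. In WT mice 6 of 6 passed D7 vs D0 except with quantile normalization (3 of 6). Leaving out 1 library at a time kept these 3 counts at 6, 0 and 6. For Trem2-/- vs WT at D0 the count of 1 became 0 with only the groups compared, 2 with a pseudocount of 0.1, a mean of at least 5 CPM, median-of-ratios rescaling, TMM without the collagens or eBayes without trend, 3 with voom or without WT D0 replicates 2 and 4, and 5 with edgeR, and it ranged from 0 to 6 when single libraries were left out. For the interaction the count of 0 became 1 with quantile normalization or voom, 2 with eBayes without trend, 4 without WT D0 replicates 2 and 4 and 5 with edgeR, and ranged from 0 to 6 when single libraries were left out. The cause was not tested. Over all genes, 283 passed between genotypes before injury, against 107 when WT D0 replicate 4 was left out, 1231 when WT D0 replicate 2 was, 588 when both were, and 149 in a fit of the 2 groups alone. For injury in WT mice 3752 passed, against 1736 in a fit of these groups alone and 1972 when WT D0 replicate 3 was left out. Between genotypes after injury 753 passed, against 1366 in a fit of these groups alone and 480 when WT D7 replicate 3 was left out. In the interaction 1026 passed, against 609 and 2236 when WT D0 replicate 4 or replicate 2 was left out.

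With the replicate block 6 members passed for injury in WT mice and 6 in Trem2-/- mice, 0 and 1 passed between genotypes after and before injury, and 0 passed in the interaction, so it changed no count. Correlations of same-numbered libraries ranged from -0.51 to 0.41, and 11 of 24 were over 0.1. By best correlation, 7 of 16 libraries matched their own number. No level by chance was computed, so these values do not decide whether the numbers pair the samples.

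Chain ratios passed in 0 of 20 tests with a pseudocount of 0.1 too, where no ratio could pass by itself after the adjustment. With 1 library left out or with paired mice these exact permutation tests cannot pass, so they were not run. At 4 mice a group the upper 95% limits of the genotype difference at D7 were 1.32 to 1.69 on the log2 scale, in the fit that shares its spread with the D0 groups. The lowest value of any member in any library was 69.4 CPM, against at most 0.250 CPM for 3 reads.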
